A study of Mus musculus with 15 samples.

Results

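The amino acid and endoplasmic reticulum (ER) stress response genes described here are a list of 39 mouse genes, made up of the transcription factors ATF4 and CHOP, their reported targets, and targets of the unfolded protein response. Each gene was read on the brightest probe set that names it alone, by the mean over the 15 arrays, and 38 of the 39 had such a probe set among the 18193 genes measured. Gdf15, a secreted stress hormone, was the 1 listed gene without its own probe set and was not analysed here. The study compared mouse induced pluripotent stem (iPS) cells with embryonic stem (ES) cells and with fibroblasts on Affymetrix arrays, with 3 samples a group that the design text calls biological replicates. The iPS lines IP14D-1 and IP20D-3 had the B6D2F1 background, and the iPS line IP14D-101 had the C57x129S2 background. The ES line CL11 and the mouse embryonic fibroblasts (MEF) used to make iPS cells were also B6D2F1. ES and iPS cells were grown on growth-arrested MEF feeder cells with LIF and nonessential amino acids, in medium with either serum or a serum replacement, and which of the 2 each line received is not labelled. Each kind of iPS or ES cell was 1 line, so line and culture cannot be told apart. In comparisons with IP14D-101, background cannot be told apart from them either. The p-values measure only the spread among the 3 samples within each group, pooled over the 5 groups and drawn toward that of other genes.

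When amino acids run short or unfolded proteins gather in the ER, the kinases GCN2 and PERK phosphorylate eIF2α, which slows translation in general while favouring translation of ATF4. ATF4, with partners of the C/EBP family, then switches on genes for amino acid uptake and synthesis, and with CHOP it switches on genes for feedback and cell death. The ER has further sensors, IRE1 and ATF6, which through XBP1 and cleaved ATF6 raise chaperones and degradation factors such as BiP.

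The promoters below show the letters through which ATF4 with C/EBP partners, and XBP1 or ATF6, are known to bind. A search of the 250 bases before each start site (RefSeq, build GRCm38.p6, both strands) covered 33 of the 39 genes and 27025 genes in all. The C/EBP-ATF response element, searched as TGATGNAA, was present in 8 of the 33 genes (24.2%) and in 3.91% of all genes searched. Those 8 were Asns, Atf3, Chac1, Herpud1, Nupr1, Pck2, Slc7a11 and Vldlr. The ER stress response element, searched as CCAAT and CCACG with 9 bases between them, was present in Hspa5 and Hsp90b1 (6.06%, against 0.13% of all genes searched). Its second form, ATTGG and CCACG with 1 base between them, was present in Herpud1 (3.03%, against 0.037%). Because the list was made up of reported targets of these pathways, its shares are not independent of how its genes were chosen. The 2 ER stress patterns share the CCAAT and CCACG boxes in different spacing, and the second has the CCAAT box inverted, read as ATTGG. Each pattern was counted separately, and a match describes letters, not binding. Counted from the start site, the C/EBP-ATF match began at -110 in both Atf3 and Nupr1, at -112 in Herpud1 and at -193 in Chac1, each reading TTGCATCA on the strand shown. The promoters of 6 genes follow, 5′ to 3′ on the gene's strand, with the matches in capitals.
Atf3, chr1:191183334-191183583, minus strand: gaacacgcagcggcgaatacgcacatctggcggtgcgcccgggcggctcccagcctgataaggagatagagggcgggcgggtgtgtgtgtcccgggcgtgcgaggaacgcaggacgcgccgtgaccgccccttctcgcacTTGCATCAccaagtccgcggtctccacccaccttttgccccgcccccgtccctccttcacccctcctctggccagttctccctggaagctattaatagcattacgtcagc
Chac1, chr2:119350992-119351241, plus strand: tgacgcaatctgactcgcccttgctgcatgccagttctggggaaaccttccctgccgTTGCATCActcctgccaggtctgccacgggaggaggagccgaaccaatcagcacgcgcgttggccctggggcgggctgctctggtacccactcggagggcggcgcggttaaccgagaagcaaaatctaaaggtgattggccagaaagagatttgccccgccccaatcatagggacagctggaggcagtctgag
Nupr1, chr7:126625471-126625720, minus strand: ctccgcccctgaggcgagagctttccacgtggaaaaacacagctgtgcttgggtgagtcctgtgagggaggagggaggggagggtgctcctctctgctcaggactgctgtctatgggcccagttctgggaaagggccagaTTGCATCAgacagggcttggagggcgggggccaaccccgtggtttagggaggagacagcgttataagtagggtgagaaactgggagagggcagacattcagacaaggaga
Herpud1, chr8:94386179-94386428, plus strand: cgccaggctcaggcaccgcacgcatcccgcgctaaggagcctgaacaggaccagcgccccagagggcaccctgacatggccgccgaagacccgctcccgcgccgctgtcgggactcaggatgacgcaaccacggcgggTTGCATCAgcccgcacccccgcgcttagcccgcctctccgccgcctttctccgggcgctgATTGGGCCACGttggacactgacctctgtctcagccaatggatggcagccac
Hspa5, chr2:34771840-34772089, plus strand: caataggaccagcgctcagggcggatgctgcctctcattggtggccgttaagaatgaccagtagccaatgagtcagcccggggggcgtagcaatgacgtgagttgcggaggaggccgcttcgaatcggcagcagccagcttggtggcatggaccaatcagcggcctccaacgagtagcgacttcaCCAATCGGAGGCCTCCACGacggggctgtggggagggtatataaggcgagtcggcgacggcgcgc
Hsp90b1, chr10:86705445-86705694, minus strand: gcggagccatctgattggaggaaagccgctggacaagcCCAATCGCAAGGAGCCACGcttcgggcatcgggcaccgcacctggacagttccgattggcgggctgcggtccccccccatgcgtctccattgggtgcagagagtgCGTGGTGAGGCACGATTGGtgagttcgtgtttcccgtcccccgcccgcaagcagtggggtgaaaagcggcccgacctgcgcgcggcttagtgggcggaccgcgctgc

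Values are MAS5 signals, the average brightness of a probe set on an array, in kU (1000 signal units) after each array was scaled to 1 trimmed mean, because mean brightness as deposited differed by up to 1.83-fold between arrays. A signal under 2.09 kU was treated as background, the 95th percentile of 39 olfactory receptor genes. Changes were tested on the log2(signal + 16) scale with limma over all genes and groups, and a gene was called at a Benjamini-Hochberg adjusted p under 0.05. With this scaling the median change of all genes lay between -0.04 and 0.13 in the 10 comparisons, against -0.56 to 0.35 with signals as deposited and -0.23 to 0.39 with arrays set to 1 median. Changes below are read against those shifts. The labels matched the markers: 12 pluripotency genes summed to 3614 to 4639 kU in the iPS and ES lines, against 27.2 to 31.0 kU in MEF. The 13 fibroblast genes summed to 17.9 to 42.5 kU in the lines, against 4904 to 5319 kU in MEF. A measure of RNA quality, the 3′ to 5′ ratio of the actin control, was 1.37 ± 0.037 in IP14D-1, 1.28 ± 0.026 in IP20D-3 and 1.22 ± 0.064 in IP14D-101, against 1.21 ± 0.018 in CL11 (SD, n = 3 each). It was 1.16 ± 0.019 in MEF. The same ratio of Gapdh lay between 0.795 and 0.85 in the 5 groups.

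**Figure D1:**
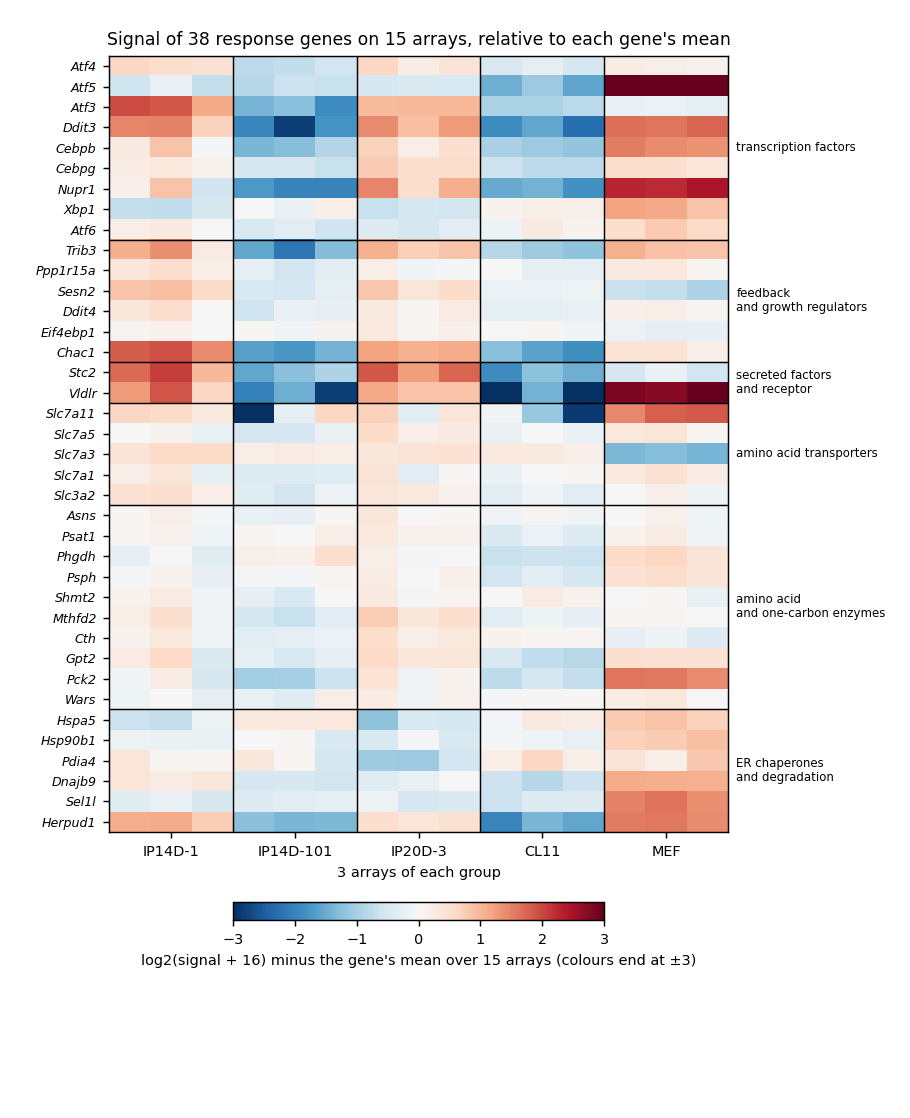
Level of each of the 38 measured genes on each of the 15 arrays, as log2(signal + 16) minus that gene's mean over all arrays (colours end at ±3), with genes ordered by role and arrays by group. Most transcription factors and feedback genes are high in IP14D-1, IP20D-3 and MEF and low in IP14D-101 and CL11.

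Against the ES line CL11, the stress response genes were higher in 2 of the 3 iPS lines. In IP14D-1, 24 of the 38 genes were higher than in CL11 and 2 were lower, where 11.8% of all 18193 genes were called higher and 12.5% lower. In IP20D-3, 23 were higher and 4 lower, where 10.6% of all genes were called higher and 11.4% lower. In IP14D-101, 4 were higher and 2 lower, where the shares over all genes were 6.07% and 5.55%. The median change of the 38 genes against CL11 was 0.55 on the log2 scale in IP14D-1, 0.56 in IP20D-3 and -0.09 in IP14D-101, while the median of all genes was 0.03, 0.01 and 0.00. All 3 comparisons share the CL11 arrays, so their values stand side by side and are not independent.

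Those counts moved with the scaling. With arrays set to 1 median, 15 genes were higher and 2 lower in IP14D-1 against CL11, because 9 modest changes, in Ddit4, Mthfd2, Pck2, Phgdh, Ppp1r15a, Psat1, Psph, Slc3a2 and Slc7a3, were no longer called. The median of all genes was -0.21 there. In IP14D-101 against CL11 the split was 1 higher and 5 lower as deposited, 4 and 0 with median scaling, and 4 and 4 with quantile normalization. The median of all genes in those settings was -0.15, 0.12 and 0.01. Shares of all genes called were taken only with trimmed-mean scaling, here and below. Without replicate 3 of IP14D-101, 10 genes were called there. Genes of the primitive endoderm, a cell type that ES cultures can give rise to, moved the other way: their summed signal over 14 genes was 290.0 to 320.5 kU in IP14D-1, 245.0 to 259.5 kU in IP20D-3 and 597 to 727 kU in IP14D-101, against 1004 to 1026 kU in CL11. All 14 were lower in IP14D-1 and in IP20D-3, and 5 were lower in IP14D-101. Sox17, Foxa2, Cubn and Pdgfra were below background on every IP14D-1 array, as were Foxa2, Cubn and Pdgfra on every IP20D-3 array, and none of the 14 was in CL11 or IP14D-101. The same sum was 2215 to 2418 kU in MEF, where Sox17, Sox7, Foxa2, Cubn and Amn were below background on every array. The sum alone is therefore not particular to primitive endoderm. The 13 fibroblast genes, which mark feeder cells too, summed to 40.2 to 42.5 kU in IP14D-1, 17.9 to 21.5 kU in IP20D-3 and 36.04 to 38.6 kU in IP14D-101, against 30.7 to 34.8 kU in CL11. They moved with the stress genes in IP14D-1, where 5 were higher than CL11 (Col1a1, Col1a2, Col3a1, Postn and Twist1) and 1, Pdgfra, was lower, with a median change of 1.22. In IP20D-3 none was higher and 3 were lower, and in IP14D-101 none was higher and 1 was lower. In IP14D-101 against IP14D-1, 1 was higher and 6 lower, with a median change of -1.36. Pdgfrb, Lum, Dcn and Prrx1 were below background on every array of the 4 lines. In CL11, 9 of the 13 were below background on every array, Col1a1, Col3a1, Postn and Twist1 among them, and in IP14D-101 8 were. The medians of 1.22 and -1.36 are therefore not measured folds. The part of both marker lists and of the actin ratio in the result was not tested. In such bulk samples, fewer cells of a type and less RNA per cell cannot be told apart.

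**Figure D2:**
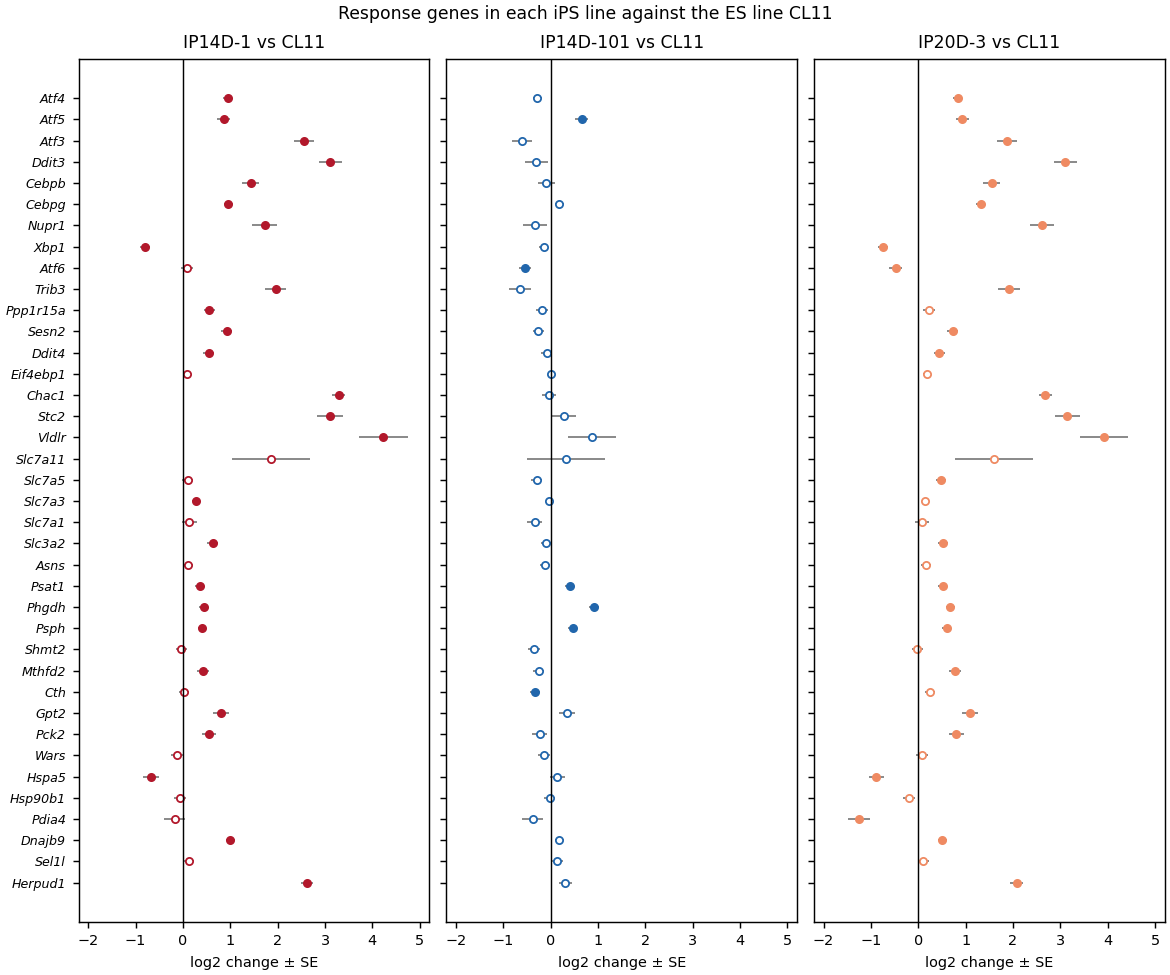
Log2 change of each measured gene against CL11 in IP14D-1, IP14D-101 and IP20D-3, with bars for the standard error of the fit, filled points for called genes and open points for the others (levels of Vldlr and Slc7a11 in CL11 were below background). The points of IP14D-1 reach above 3 for Ddit3, Chac1, Stc2 and Vldlr, and those of IP14D-101 stay between -0.64 and 0.91.

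Of the 9 transcription factors, 7 were higher and 1 lower in IP14D-1 against CL11, 7 were higher and 2 lower in IP20D-3, and 1 was higher and 1 lower in IP14D-101. Shares of all genes, for this and the roles below, were 11.8% higher and 12.5% lower in IP14D-1. They were 10.6% and 11.4% in IP20D-3, and 6.07% and 5.55% in IP14D-101. Atf4, the factor translated when eIF2α is phosphorylated, had signals of 359.5, 338 and 317 kU in IP14D-1, 362, 273 and 307 kU in IP20D-3 and 135, 141 and 158 kU in IP14D-101, against 171, 194 and 162 kU in CL11. Its arrays in IP14D-1 and IP20D-3 were all brighter than every CL11 array, and those of IP14D-101 were all dimmer. On the log2 scale Atf4 rose by 0.95 ± 0.096 in IP14D-1 (limma adjusted p = 1.2e-06) and by 0.83 ± 0.096 in IP20D-3 (limma adjusted p = 5e-06), and differed by -0.28 ± 0.096 in IP14D-101 (limma adjusted p = 0.0699), where ± gives the standard error.

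Ddit3 encodes CHOP, a factor that ATF4 induces and that promotes cell death under lasting stress. Its signals were 77.2, 79.1 and 45.1 kU in IP14D-1, 75.3, 52.6 and 68.1 kU in IP20D-3 and 7.18, 3.96 and 8.04 kU in IP14D-101, against 7.61, 9.52 and 5.86 kU in CL11. The first 2 lines stood clear of CL11, and the arrays of IP14D-101 overlapped those of CL11. The rise was 3.11 ± 0.24 on the log2 scale in IP14D-1 and 3.10 ± 0.24 in IP20D-3 (limma adjusted p = 5.8e-08 and 4.9e-08). Replicate 3 of IP14D-1 was the dimmest of its group for Ddit3 and for 34 of the 38 genes in all, a place it held for 36.8% of all genes. Replicate 2 of IP20D-3 was likewise the dimmest of its group for 29 of the 38 genes, against 33.5% of all genes, and MEF replicate 3 for 30, against 33.6%.

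Atf3, a stress factor that carries a C/EBP-ATF element in the promoter shown above, had signals of 29.96, 27.9 and 16.97 kU in IP14D-1, 14.8, 15.1 and 15.3 kU in IP20D-3 and 2.90, 3.22 and 2.07 kU in IP14D-101, against 3.95, 3.99 and 4.34 kU in CL11. It was higher by 2.56 ± 0.21 on the log2 scale in IP14D-1 and by 1.88 ± 0.21 in IP20D-3. The IP14D-101 arrays were all dimmer than those of CL11 and 1 was below background, and the difference of -0.60 ± 0.21 was not called (limma adjusted p = 0.0738). Nupr1, a small stress-induced chromatin protein, had signals of 59.4, 95.6 and 35.2 kU in IP14D-1, 146, 76.7 and 113 kU in IP20D-3 and 16.1, 13.2 and 13.3 kU in IP14D-101, against 18.6, 19.9 and 14.96 kU in CL11. It rose by 1.72 ± 0.26 in IP14D-1 and by 2.61 ± 0.26 in IP20D-3, and its 3 arrays within each of those lines spread more widely than those of Atf4.

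Cebpb and Cebpg encode C/EBP partners of ATF4. Cebpb was higher than in CL11 by 1.43 ± 0.18 on the log2 scale in IP14D-1 and 1.55 ± 0.18 in IP20D-3, and differed by -0.09 ± 0.18 in IP14D-101. Cebpg was higher by 0.96 ± 0.094 in IP14D-1 and 1.32 ± 0.094 in IP20D-3. Atf5, a relative of ATF4, was the 1 factor higher in all 3 iPS lines, with signals of 12.95, 16.8 and 12.01 kU in IP14D-1, 14.2, 14.7 and 14.4 kU in IP20D-3 and 10.9, 12.6 and 12.4 kU in IP14D-101, against 7.14, 9.31 and 6.56 kU in CL11. The changes were 0.86, 0.92 and 0.65 on the log2 scale. As deposited, the change in IP14D-101 was 0.50 and not called (limma adjusted p = 0.0574).

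Xbp1 and Atf6, the factors of the IRE1 and ATF6 branches, were not called higher than CL11 in any iPS line. Xbp1, the factor spliced by IRE1, had signals of 66.8, 66.2 and 78.9 kU in IP14D-1, 69.1, 77.1 and 74.6 kU in IP20D-3 and 111, 96.5 and 127 kU in IP14D-101, against 119, 124 and 125 kU in CL11. The arrays of IP14D-1 and IP20D-3 all lay below those of CL11, and log2 changes were -0.80 ± 0.10 and -0.74 ± 0.10 (limma adjusted p = 1.3e-05 and 3.1e-05). The probe set measures total Xbp1 and does not tell spliced from unspliced RNA. Atf6, the membrane-bound factor released by ER stress, changed by -0.48 ± 0.13 in IP20D-3 and -0.54 ± 0.13 in IP14D-101, both called lower, and differed by 0.09 ± 0.13 in IP14D-1 without being called. Without CL11 replicate 2 both calls of Atf6 were lost (-0.39, limma adjusted p = 0.0702 in IP20D-3, and -0.45, limma adjusted p = 0.0646 in IP14D-101), as was the one in IP20D-3 without IP20D-3 replicate 2 (limma adjusted p = 0.0502). Both were lost as well with the median of its probe sets (-0.32, limma adjusted p = 0.0951 in IP20D-3, and -0.38, limma adjusted p = 0.0743 in IP14D-101), and the one in IP14D-101 with median scaling (-0.42, limma adjusted p = 0.0882).

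**Figure D3:**
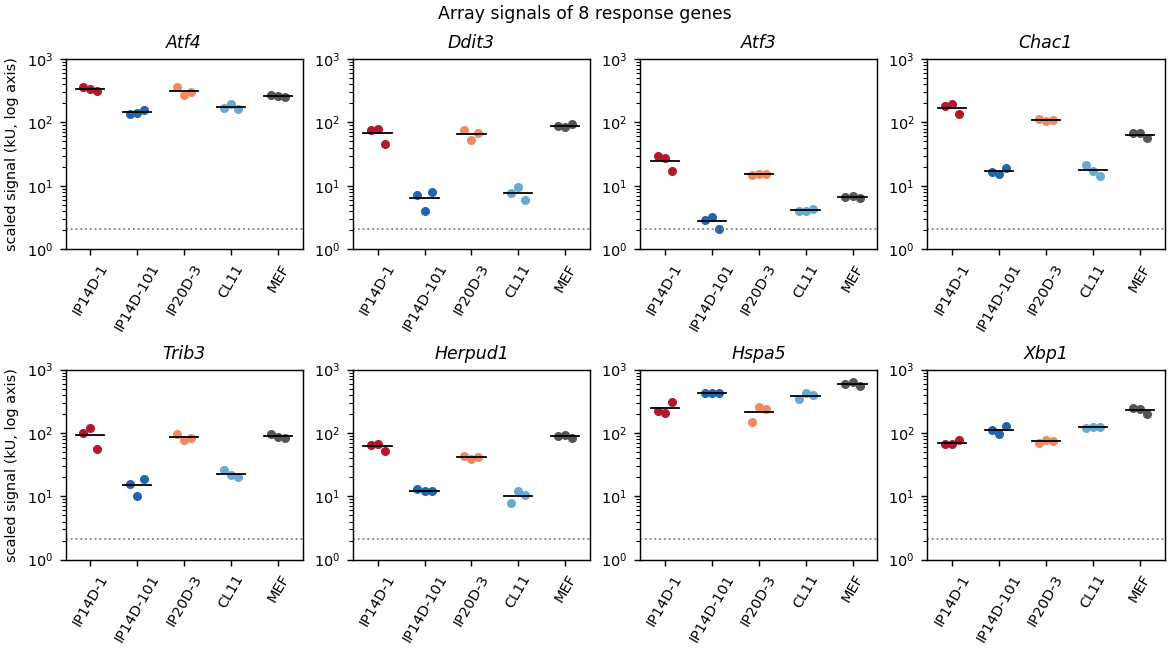
Scaled MAS5 signal of selected genes on each array, in kU on a log axis, with points for single arrays, a line for each group's mean and a dotted line for background. Atf4, Ddit3, Atf3, Chac1 and Trib3 are bright in IP14D-1 and IP20D-3 and dim in IP14D-101 and CL11, and Hspa5 and Xbp1 run the other way.

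Feedback and growth regulators followed, with 5 of 6 higher than CL11 in IP14D-1, 4 of 6 in IP20D-3 and 0 of 6 in IP14D-101. Chac1, an enzyme that breaks down glutathione, had signals of 180.1, 195 and 136 kU in IP14D-1, 115, 107 and 110.5 kU in IP20D-3 and 16.4, 15.2 and 19.1 kU in IP14D-101, against 21.4, 16.8 and 14.3 kU in CL11. Its rise of 3.29 ± 0.14 on the log2 scale in IP14D-1 and 2.68 ± 0.14 in IP20D-3 left no overlap with CL11 (limma adjusted p = 2e-11 and 3e-10), and IP14D-101 arrays overlapped those of CL11.

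Trib3, a pseudokinase that feeds back on ATF4, had signals of 99.5, 122 and 55.3 kU in IP14D-1, 97.5, 76.2 and 83.4 kU in IP20D-3 and 15.7, 10.2 and 18.7 kU in IP14D-101, against 25.7, 21.98 and 20.2 kU in CL11. It rose by 1.96 ± 0.23 in IP14D-1 and 1.92 ± 0.23 in IP20D-3, while the IP14D-101 arrays were all dimmer than those of CL11 with a difference of -0.64 ± 0.23 that was not called (limma adjusted p = 0.0785). Sesn2, which restrains mTORC1 when leucine is short, was higher by 0.93 ± 0.12 in IP14D-1 and 0.73 ± 0.12 in IP20D-3. Ddit4, another mTORC1 inhibitor, was higher by 0.54 ± 0.11 in IP14D-1 and 0.44 ± 0.11 in IP20D-3, calls lost with median scaling (0.30 and 0.31). The Ddit4 call in IP20D-3 was lost as deposited too (0.22). Ppp1r15a, the GADD34 subunit that directs the dephosphorylation of eIF2α, was called in IP14D-1, at 0.56 ± 0.12, and not in IP20D-3, at 0.22 ± 0.12, and the direct contrast of those lines (-0.33 ± 0.12, IP20D-3 minus IP14D-1) was not called. Eif4ebp1, a translational repressor, was not called in any iPS line against CL11.

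The secreted glycoprotein stanniocalcin-2 and the VLDL receptor, both reported targets of PERK signalling, showed some of the widest differences. Stc2 had signals of 24.02, 31.3 and 14.5 kU in IP14D-1, 26.8, 17.5 and 24.98 kU in IP20D-3 and 2.51, 3.09 and 3.87 kU in IP14D-101, against 2.00, 3.14 and 2.67 kU in CL11. The CL11 and IP14D-101 arrays lay near background, and the rise was 3.11 ± 0.27 on the log2 scale in IP14D-1 and 3.14 ± 0.27 in IP20D-3. Vldlr had signals of 23.6, 35.8 and 14.8 kU in IP14D-1, 21.4, 17.5 and 17.6 kU in IP20D-3 and 2.38, 3.52 and 1.36 kU in IP14D-101, against 1.15, 3.65 and 0.428 kU in CL11. Because its mean in CL11 was below background, its level was at least 9.20-fold higher in IP14D-1 and at least 7.42-fold higher in IP20D-3, with dim arrays raised to the background before averaging (limma adjusted p = 8.6e-06 and 1.9e-05).

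Median log2 changes against CL11 were 0.96 in IP14D-1 and 1.32 in IP20D-3 for the transcription factors, 0.27 and 0.48 for the transporters, and 0.38 and 0.56 for the enzymes. Of the 5 transporters, 2 were higher than CL11 in IP14D-1, 2 in IP20D-3 and 0 in IP14D-101. Slc3a2, the heavy chain shared by several transporters, had signals of 243, 252 and 207 kU in IP14D-1, 231, 220.3 and 198 kU in IP20D-3 and 140.2, 123 and 163 kU in IP14D-101, against 146, 166 and 142 kU in CL11. It rose by 0.63 ± 0.11 in IP14D-1 and 0.52 ± 0.11 in IP20D-3. Slc7a5, its partner in leucine uptake, was called in IP20D-3 at 0.48 ± 0.11 and had 0.10 ± 0.11 in IP14D-1, and those 2 lines differed directly by 0.37 ± 0.11 (IP20D-3 minus IP14D-1, limma adjusted p = 0.046). That direct difference was modest: it was not called with the replicate block (limma adjusted p = 0.0546), without the trend, with median scaling (0.49), with the median of probe sets, or without replicate 1 or 3 of either line (0.27 to 0.41), and as deposited it turned to -0.17. The cationic transporter Slc7a3 was called in IP14D-1 at 0.27 ± 0.067 and had 0.15 ± 0.067 in IP20D-3. Slc7a1, a related transporter, was not called in any iPS line against CL11, and the cystine transporter Slc7a11 had group means below background in all 4 lines, so no fold is given. None of the 4 transporter calls held with median scaling, where Slc3a2 had 0.38 in IP14D-1 and 0.39 in IP20D-3, Slc7a5 had 0.35 in IP20D-3 and Slc7a3 had 0.024 in IP14D-1. The IP20D-3 calls of Slc3a2 (0.30) and Slc7a5 (0.26) were lost as deposited too.

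Of the 10 enzymes, 6 were higher than CL11 in IP14D-1, 6 in IP20D-3 and 3 in IP14D-101, where 1 was lower. With median scaling the counts were 1, 5 and 3 higher, Gpt2 being the 1 left in IP14D-1. They were 7, 5 and 1 higher as deposited, with 2 lower in IP14D-101. The median of all genes was -0.21, -0.11 and 0.12 with median scaling, and 0.35, -0.20 and -0.15 as deposited. The serine synthesis enzymes Phgdh, Psat1 and Psph were higher in all 3 iPS lines. Phgdh, which makes the first committed step, had signals of 133, 157 and 122 kU in IP14D-1, 178, 152 and 156 kU in IP20D-3 and 179, 176 and 218 kU in IP14D-101, against 99.4, 102 and 101 kU in CL11. The rise was 0.44 ± 0.100 in IP14D-1, 0.68 ± 0.100 in IP20D-3 and 0.91 ± 0.100 in IP14D-101. Psat1 changes were 0.36, 0.52 and 0.40 in those lines, and Psph changes were 0.40, 0.60 and 0.47. IP14D-101, in which Atf4, Ddit3 and Chac1 were not called against CL11, thus had all 3 enzymes above it. With median scaling the IP14D-1 changes were 0.20 for Phgdh, 0.11 for Psat1 and 0.16 for Psph, none called, and as deposited the IP14D-101 changes of Psat1 (0.25) and Psph (0.32) were not called. Psat1 in IP20D-3 was not called as deposited (0.30, limma adjusted p = 0.0907) or with median scaling (0.39, limma adjusted p = 0.0566). Psat1 in IP14D-1 was also lost without IP14D-1 replicate 2 (0.30, limma adjusted p = 0.0609) or CL11 replicate 1 (0.31, limma adjusted p = 0.0507), and in IP14D-101 without CL11 replicate 1 (0.35, limma adjusted p = 0.0505).

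Gpt2, the mitochondrial alanine transaminase, rose by 0.80 ± 0.17 in IP14D-1 and 1.09 ± 0.17 in IP20D-3. Mthfd2, a mitochondrial folate enzyme, rose by 0.42 ± 0.12 in IP14D-1 and 0.77 ± 0.12 in IP20D-3, and Pck2, the mitochondrial PEP carboxykinase, by 0.55 ± 0.16 and 0.80 ± 0.16. In IP14D-1 both calls were lost without IP14D-1 replicate 2, at 0.27 for Mthfd2 and 0.38 for Pck2, and without CL11 replicate 1, at 0.38 for Mthfd2 and 0.50 for Pck2, and Pck2 also without CL11 replicate 3, at 0.52. Asns, asparagine synthetase and a widely used ATF4 target, was not called in any of the 10 comparisons. Its signals were 309.9, 335 and 289 kU in IP14D-1, 374, 295 and 302 kU in IP20D-3, 253, 248 and 301 kU in IP14D-101, 274, 314 and 279 kU in CL11 and 296, 322 and 270.2 kU in MEF. Its promoter holds a C/EBP-ATF match. The folate enzyme Shmt2 was not called in any comparison either. Wars, a tRNA synthetase, was not called against CL11, and Cth, which makes cysteine, was called against CL11 in IP14D-101, where it fell by 0.33 on the log2 scale, a call lost in 5 of the 6 fits that left out 1 array of either group, all but the one without IP14D-101 replicate 3 (limma adjusted p between 0.0974 and 0.124 in those 5).

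The ER genes moved in both directions. Of 6 chaperone and degradation genes, 2 were higher and 1 lower than CL11 in IP14D-1, 2 higher and 2 lower in IP20D-3, and none was called in IP14D-101, and the median of the 6 in IP14D-1 was 0.03, against -0.21 with median scaling and 0.36 as deposited. Herpud1, an ER degradation factor that carries both kinds of element, had signals of 65.3, 66.8 and 51.7 kU in IP14D-1, 43.8, 39.3 and 42.5 kU in IP20D-3 and 12.97, 11.9 and 12.1 kU in IP14D-101, against 7.82, 11.96 and 10.4 kU in CL11. It rose by 2.62 ± 0.13 in IP14D-1 and 2.08 ± 0.13 in IP20D-3. Hspa5 encodes BiP, the main ER chaperone, and had signals of 219.7, 210.0 and 309 kU in IP14D-1, 150.4, 253 and 241 kU in IP20D-3 and 424, 422 and 433 kU in IP14D-101, against 338, 423 and 402 kU in CL11. All arrays of IP14D-1 and IP20D-3 lay below all arrays of CL11, with changes of -0.67 ± 0.16 and -0.88 ± 0.16 (limma adjusted p = 0.00449 and 0.00053). As deposited, the change of Hspa5 in IP14D-1 was -0.34 and not called (limma adjusted p = 0.118).

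Hsp90b1, the ER form of HSP90, carries the same ER stress element as Hspa5 and differed from CL11 by -0.06 ± 0.12 in IP14D-1 and -0.19 ± 0.12 in IP20D-3, neither called. Pdia4, a protein disulfide isomerase, had -0.18 ± 0.23 in IP14D-1 and was lower in IP20D-3, at -1.25 ± 0.23, a call lost with the median of its probe sets (-0.54, limma adjusted p = 0.605). Dnajb9, a co-chaperone of BiP, rose by 1.00 ± 0.093 in IP14D-1 and 0.51 ± 0.093 in IP20D-3, the second of which was 0.29 and not called as deposited. Sel1l, a part of the ER degradation complex, was not called against CL11, and its sign in IP14D-1 turned to -0.46 when the median of its probe sets was used.

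A wider set of genes outside the list was counted the same way against CL11, where 11.8% of all genes were called higher and 12.5% lower in IP14D-1. Those shares were 10.6% and 11.4% in IP20D-3, and 6.07% and 5.55% in IP14D-101. As deposited, the median of all genes was 0.35 in IP14D-1, -0.20 in IP20D-3 and -0.15 in IP14D-101. With median scaling it was -0.21, -0.11 and 0.12. Shares of all genes called were not taken for those 2 settings, here or in the lists below. Of 28 other ER chaperone, folding and degradation genes, 1 was higher and 12 lower in IP14D-1, 2 higher and 15 lower in IP20D-3, and 2 higher and 1 lower in IP14D-101. As deposited, the split was 5 higher and 1 lower in IP14D-1, 0 and 18 in IP20D-3, and 1 and 2 in IP14D-101. Txndc11 changed by -0.97 ± 0.20 in IP14D-1 and -1.17 ± 0.20 in IP20D-3, and Sdf2l1, an ER chaperone cofactor, by -0.90 ± 0.19 and -0.74 ± 0.19. Manf, a secreted ER stress protein, changed by -0.74 ± 0.090 in IP20D-3. Derl1, which acts in ER degradation, rose by 0.71 ± 0.072 in IP14D-1.

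Of 25 other reported ATF4 and CHOP targets, 11 were higher and 3 lower in IP14D-1, 11 higher and 5 lower in IP20D-3, and 3 higher and 5 lower in IP14D-101. As deposited, the split was 16 and 2 in IP14D-1, 7 and 5 in IP20D-3, and 0 and 5 in IP14D-101. Jdp2, a bZIP factor of the AP-1 family, rose by 2.41 ± 0.26 in IP14D-1 and 2.71 ± 0.26 in IP20D-3, and Crebrf, a regulator of CREB3 proteins, by 2.40 ± 0.15 and 2.51 ± 0.15. Klhl24 rose by 1.66 ± 0.14 in IP20D-3. Fgf21, a stress hormone, was at least 1.23-fold higher in IP14D-1 from a CL11 level below background. Of 15 other amino acid transporters, 5 were higher and 2 lower in IP14D-1, with the same counts in IP20D-3, and 1 was higher and 1 lower in IP14D-101, while as deposited the splits were 7 and 0 in IP14D-1, 4 and 3 in IP20D-3, and 0 and 1 in IP14D-101. Slc6a9, a glycine transporter, rose by 1.27 ± 0.22 in IP14D-1 and 1.44 ± 0.22 in IP20D-3, and Slc1a4, a neutral amino acid transporter, by 0.84 ± 0.19 and 1.15 ± 0.19. Slc36a4 passed the test in both lines but was below background in them and in CL11.

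Of 18 other tRNA synthetases, 4 were higher and 1 lower in IP14D-1, 7 higher and 1 lower in IP20D-3, and 3 higher and 1 lower in IP14D-101, but with median scaling 0 were higher and 5 lower in IP14D-1, 2 and 1 in IP20D-3, and 2 and 0 in IP14D-101. As deposited, 10 and 0 were in IP14D-1, 2 and 2 in IP20D-3, and 1 and 1 in IP14D-101. Lars rose by 0.47 ± 0.073 in IP14D-1 and 0.59 ± 0.073 in IP20D-3. Of 16 other genes of amino acid and one-carbon synthesis, 5 were higher and 5 lower in IP14D-1, 6 higher and 1 lower in IP20D-3, and 5 higher and 0 lower in IP14D-101, while as deposited 9 were higher and 1 lower in IP14D-1 and 4 and 3 in IP20D-3. Aldh1l2, a mitochondrial folate enzyme, rose by 1.29 ± 0.26 in IP14D-1, and Gldc, of the glycine cleavage system, by 1.64 ± 0.35 in IP20D-3. Another list held 16 measured stress sensors, eIF2α kinases, eIF2B subunits and other regulators. Among them 1 was higher and 3 lower in IP14D-1, 3 higher and 1 lower in IP20D-3, and 1 higher and 2 lower in IP14D-101. The splits as deposited were 5 and 0, 1 and 5, and 0 and 2. Impact, which inhibits GCN2, had the largest called change of these in each line, higher by 1.65 ± 0.079 in IP14D-1, 1.54 ± 0.079 in IP20D-3 and 0.34 ± 0.079 in IP14D-101. With trimmed-mean scaling, the counts of the sensors, kinases, eIF2B subunits and other regulators lay near the shares of all genes given above.

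Lists for other kinds of stress are set against the shares of all genes called, 11.8% higher and 12.5% lower in IP14D-1, 10.6% and 11.4% in IP20D-3, and 6.07% and 5.55% in IP14D-101. In lists of this size, 0 or 1 gene called higher is near those shares. Of 13 cytosolic heat shock genes, 0 were higher and 7 lower in IP14D-1, 1 higher and 6 lower in IP20D-3, and none was called in IP14D-101, while as deposited 2 were higher and 4 lower in IP14D-1 and 0 and 8 in IP20D-3. Hspa1b, an inducible HSP70, changed by -1.58 ± 0.26 in IP14D-1 and -2.27 ± 0.26 in IP20D-3. Of 11 targets of NRF2, the factor of oxidative stress, 0 were higher and 4 lower in IP14D-1, 1 higher and 2 lower in IP20D-3, and 2 higher and 1 lower in IP14D-101, while as deposited 2 were higher and 1 lower in IP14D-1, 1 and 5 in IP20D-3, and 1 and 1 in IP14D-101. Srxn1, sulfiredoxin, changed by -1.26 ± 0.13 in IP14D-1 and -1.49 ± 0.13 in IP20D-3.

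**Figure D4:**
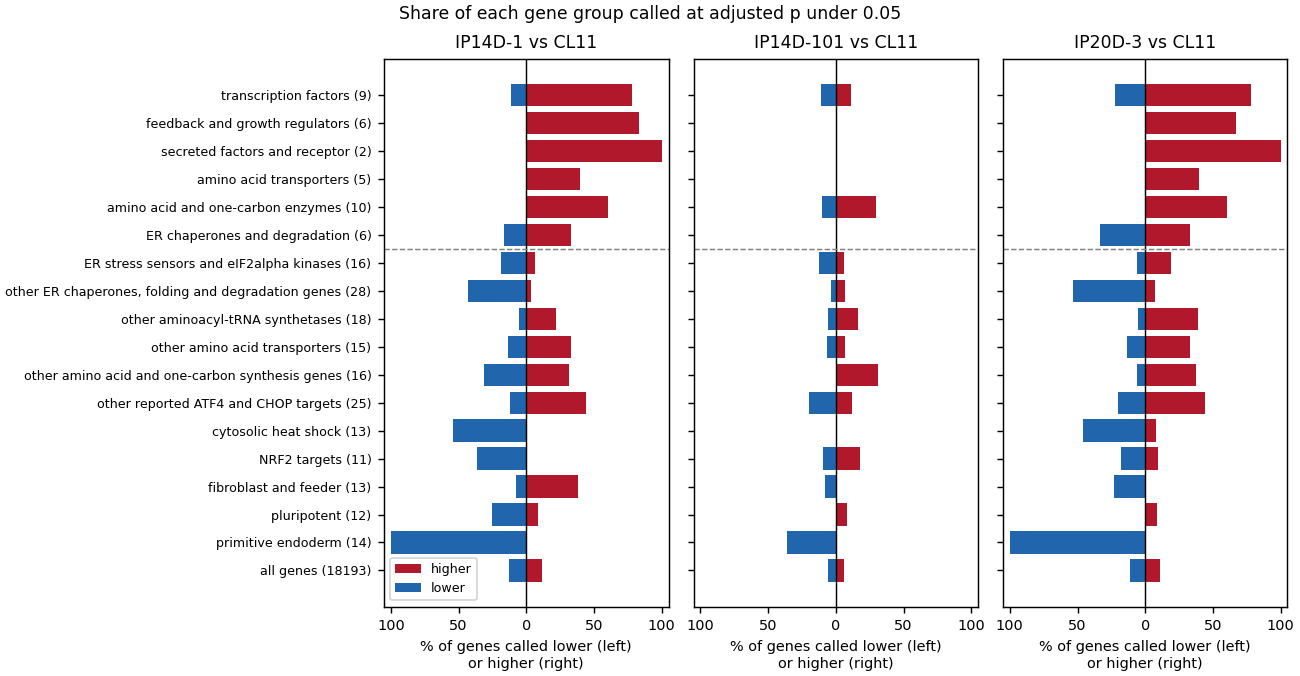
Share of each gene list called higher or lower than CL11 in IP14D-1, IP14D-101 and IP20D-3, in percent of the measured genes of the list. In IP14D-1 and IP20D-3 the transcription factors and feedback genes are mostly higher, and the other ER genes, the heat shock genes and the primitive endoderm markers are mostly lower or not called.

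Against the MEF, most of the genes were lower in CL11 and in IP14D-101, and fewer were in IP14D-1 and IP20D-3. In CL11, 4 of the 38 genes were higher than in MEF and 28 lower, where 30.3% of all genes were called higher and 24% lower. In IP14D-101, 3 were higher and 30 lower, against 30.4% and 24.9% of all genes. In IP14D-1, 9 were higher and 16 lower, against 30% and 23%, and in IP20D-3, 9 were higher and 15 lower, against 30.5% and 23.9%. Median log2 changes of the 38 genes were -0.80 in CL11, -0.80 in IP14D-101, -0.29 in IP14D-1 and -0.14 in IP20D-3, while the median of all genes lay between 0.05 and 0.13. As deposited, IP14D-1 had 5 genes higher and 16 lower than MEF and IP20D-3 had 3 and 30, and with median scaling IP14D-101 had 5 and 19. The median of all genes was 0.05 in IP14D-1 and -0.52 in IP20D-3 as deposited, and 0.39 in IP14D-101 with median scaling. The 4 comparisons share the MEF arrays.

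By mean signal, MEF was the highest of the 5 groups for 21 of the 38 genes, a place it held for 32.8% of all genes, and IP14D-101 was the highest for 0, against 18.4% of all genes. IP14D-101 was the lowest for 18 genes and CL11 for 12, where these groups were lowest for 18.3% and 16% of all genes. Atf5 had 173, 172 and 155 kU in MEF, above every array of the 4 lines, and changed by -3.60 ± 0.14 in IP14D-1, -3.53 ± 0.14 in IP20D-3, -3.80 ± 0.14 in IP14D-101 and -4.46 ± 0.14 in CL11. Nupr1 had 259.7, 251 and 292 kU in MEF and was lower in all 4 lines, with changes between -4.24 in IP14D-101 and -1.30 in IP20D-3. Vldlr had 68.7, 64.6 and 81.1 kU in MEF and was at least 28.1-fold lower in CL11. Hspa5, at 596, 629.6 and 556 kU in MEF, and Xbp1, at 251, 240.5 and 201 kU, were also lower in all 4 lines, Hspa5 by changes of -1.50 in IP20D-3, -1.29 in IP14D-1, -0.62 in CL11 and -0.48 in IP14D-101. With median scaling the Hspa5 calls in CL11 (-0.39) and IP14D-101 (-0.13) were lost, as was the one in IP14D-101 without MEF replicate 2 (-0.43, limma adjusted p = 0.0560) or without the trend.

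For several of the genes that separate the iPS lines, MEF lay near the bright lines. Ddit3 had 88.3, 85.3 and 94.4 kU in MEF and was lower in CL11 (-3.57 ± 0.24) and in IP14D-101 (-3.87 ± 0.24), while IP14D-1 (-0.46 ± 0.24) and IP20D-3 (-0.47 ± 0.24) were not called. Trib3, at 97.9, 85.7 and 83.8 kU in MEF, had the same calls, with changes of -1.98 ± 0.23 in CL11 and -2.62 ± 0.23 in IP14D-101. Chac1, at 67.7, 67.5 and 57.5 kU in MEF, was lower in CL11 (-1.89 ± 0.14) and IP14D-101 (-1.93 ± 0.14) and higher in IP14D-1 (1.39 ± 0.14) and IP20D-3 (0.79 ± 0.14). Stc2 and Atf3 had the same pattern of calls as Chac1, with 5.22, 6.45 and 4.97 kU for Stc2 and 6.70, 6.77 and 6.36 kU for Atf3 in MEF. For these 2 genes, MEF lay nearer CL11 than IP14D-1 or IP20D-3 on the log2 scale. The calls of Chac1, Stc2 and Atf3 against MEF were not all stable. Chac1 and Atf3 in IP20D-3 were not called as deposited (0.15 and 0.55), nor Atf3 in CL11 with median scaling (-0.46). Stc2 in IP14D-101, at -0.82, was lost with median scaling (-0.48), quantile normalization (-0.68) and the median of its probe sets (-0.49), without MEF replicate 2 (-0.71) and without IP14D-101 replicate 1 (-0.67). Atf4 had the same pattern of calls as Chac1, at 274, 262 and 255 kU in MEF, but its change of 0.24 in IP20D-3 turned to -0.40 as deposited and to -0.21 with the median of its probe sets. That call was also lost in 5 of the 6 fits that left out 1 array of either group, all but the one without IP20D-3 replicate 2 (0.13 to 0.27), in the fit of the 6 arrays compared and without the trend, and the change in IP14D-1, at 0.36, was not called as deposited (0.27) or with the median of probe sets (0.25).

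Slc7a3, Sesn2 and Eif4ebp1 were higher than MEF in all 4 lines. Slc7a3 had changes of 1.85 in IP14D-1, 1.73 in IP20D-3, 1.55 in IP14D-101 and 1.58 in CL11. Sesn2 had 1.54 in IP14D-1, 1.34 in IP20D-3, 0.35 in IP14D-101 and 0.62 in CL11, although in IP14D-101 it turned to -0.22 as deposited and another of its probe sets gave -0.34. Eif4ebp1 had changes between 0.22 and 0.40, which turned negative as deposited in IP20D-3, IP14D-101 and CL11, and another of its probe sets gave -0.999 in CL11 and -1.29 in IP14D-101. The Sesn2 call in IP14D-101 was lost without MEF replicate 3 (0.27) or IP14D-101 replicate 3 (0.29), and the one in CL11 as deposited (0.20). The Eif4ebp1 call in CL11 was lost without CL11 replicate 2, MEF replicate 2 or MEF replicate 3 (0.19 to 0.21) and without the trend, and the one in IP14D-1 as deposited (0.21) and with median scaling (0.28). Sel1l was lower in all 4 lines, by changes between -1.97 in CL11 and -1.83 in IP14D-101. Pck2 was lower in all 4 lines too, at -1.65 in IP14D-1, -1.39 in IP20D-3, -2.43 in IP14D-101 and -2.19 in CL11.

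Among the iPS lines, IP14D-101 stood apart from the other two. Set against IP14D-1, it had 3 genes higher and 23 lower, where 14.9% of all genes were called higher and 13.2% lower, and as deposited the split was 0 and 33 and with median scaling 7 and 14. The median of all genes moved there too, at -0.52 as deposited and 0.32 with median scaling. IP20D-3 against IP14D-101 had 21 higher and 3 lower, where 11.1% and 12.5% of all genes were called. With median scaling it had 16 and 5, where the median of all genes was -0.23. IP20D-3 against IP14D-1 had 3 higher and 6 lower, where 4.85% and 4.42% of all genes were called. That last count moved with the scaling: as deposited it was 0 higher and 23 lower and with median scaling 2 and 1. The median of all genes was -0.56 and 0.09 in those 2 settings. The count was 3 in all without replicate 1 of IP14D-1 and 5 without replicate 1 of IP20D-3. Of the 6 ER chaperone and degradation genes, 3 were lower there, with log2 changes down to -1.07, against 4.42% of all genes. They were Pdia4, lost only with the median of its probe sets (-0.12), Dnajb9, lost only with median scaling (-0.38), and Herpud1. Herpud1 was lost in several settings, among them median scaling (-0.43). Atf6, called lower too, was lost with median scaling (-0.45) and the median of its probe sets (-0.13).

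Ddit3 changed by -3.41 ± 0.24 on the log2 scale in IP14D-101 against IP14D-1, and was higher in IP20D-3 than in IP14D-101 by 3.40 ± 0.24. Chac1 changed by -3.32 ± 0.14 in IP14D-101 against IP14D-1, Trib3 by -2.60 ± 0.23 and Herpud1 by -2.30 ± 0.13. In the opposite direction, Hspa5 was higher in IP14D-101 than in IP14D-1 by 0.81 ± 0.16, and Xbp1 by 0.65 ± 0.10. Neither was called as deposited, at 0.33 for Hspa5 (limma adjusted p = 0.108) and 0.17 for Xbp1 (limma adjusted p = 0.264). Between the 2 bright lines, Nupr1 was higher in IP20D-3 than in IP14D-1 by 0.89 ± 0.26 and Cebpg by 0.37 ± 0.094, and Atf3 was lower by 0.68 and Chac1 by 0.61 on that scale. These 4 calls were lost under several settings. Atf3 (-0.57) and Chac1 (-0.49) were not called with median scaling, nor Nupr1 as deposited (0.34), where the sign of Cebpg turned to -0.18. Without the trend none of the 4 was called. Without 1 array, Atf3 was called in 1 of 6 fits (the one without IP14D-1 replicate 3), Nupr1 in 2 (those without replicate 2 of either line), Cebpg in 3 (all but those without replicate 1 of either line or replicate 3 of IP14D-1) and Chac1 in 4 (all but those without IP14D-1 replicate 1 or 2).

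The order of groups by mean for Ddit3, Trib3 and Herpud1 was MEF, IP14D-1, IP20D-3, then CL11 or IP14D-101, and for Ddit3 and Trib3 the neighbours MEF, IP14D-1 and IP20D-3 did not differ beyond the test, nor did CL11 and IP14D-101. For Chac1, Atf3 and Atf4 the order began with IP14D-1, IP20D-3 and MEF. Of the 38 genes, 27 had more than 1 probe set, 89 in all. In 4 gene and comparison pairs, of Eif4ebp1, Sesn2 and Wars, all against MEF, 2 probe sets of a gene were called in opposite directions.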

How the data were processed

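Total RNA of 15 samples, 3 in each of 5 groups, was hybridised to 1-colour Affymetrix mouse arrays. The deposited values are probe set intensity values, and the submitters' processing notes name MAS5 and Affymetrix Expression Console as the tools. MAS5 corrects background and summarises probes per array, and does not remove probe effects, so levels were not compared between genes. Scaling, detection calls and array dates are not given in the sources used here. Of 45101 probe sets, 64 were controls, 34945 named 1 gene, 932 several and 9160 none in the platform annotation. Controls and probe sets without a single gene were left out.

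The deposited 2% trimmed means ran from 11141.8 to 20355.5, more than 5% apart, so each array was scaled to their common mean. Signals were taken as log2(signal + 16) and the brightest probe set per gene was kept. Limma 3.58.1 in R 4.3.3 fitted 5 group means to all 15 arrays with a mean-variance trend, and p-values were adjusted by Benjamini-Hochberg over 18193 genes. A gene was called at an adjusted p under 0.05, and 63.88% of gene values were above background. "At least" folds raise arrays of the dimmer group to background. The number of arrays limits the precision. The script was tested on simulated data. No 2 arrays were alike (highest correlation 0.9533).

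Alternatives were signals as deposited, median and quantile scaling, pseudocounts of 64 and 1000, a filter on dim genes, the median of a gene's probe sets, no trend, only the arrays compared, a replicate block and leaving out each array. All genes of the list could be named, and of each other list up to 3 with the largest called changes per comparison. The genes and lists were chosen with earlier results of these data known. Same-numbered replicates did not deviate together over all genes (correlations of -0.031 to 0.030 in pairs of groups), so the numbers were not treated as pairs. A check over all genes, many of them dim, cannot exclude a pairing that touches fewer genes. Promoters are from RefSeq, GRCm38.p6, for 33 of 39 genes.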

Additional observations from a re-analysis of the deposited data

Results flagged for a closer look

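The genes below were called higher than MEF in 1 line and lower than MEF in another, and the 2 lines differed in the direct contrast of the same limma fit, whose log2 value is given (3 arrays a group). Chac1 differed by 3.29 in IP14D-1 against CL11, 2.68 in IP20D-3 against CL11, -3.32 in IP14D-101 against IP14D-1 and 2.72 in IP20D-3 against IP14D-101. Stc2 differed by 3.11, 3.14, -2.83 and 2.86 in the same contrasts, in that order. Atf3 differed by 2.56, 1.88, -3.16 and 2.48 in them. Atf4 differed by 0.95, 0.83, -1.23 and 1.11. Slc3a2 differed by 0.63 in IP14D-1 against CL11 and by -0.72 in IP14D-101 against IP14D-1, neither called with median scaling (0.38 and -0.36). Its opposite calls against MEF were weak: the one in CL11 (-0.26, limma adjusted p = 0.0487) was lost with median scaling (-0.034), the median of probe sets, the replicate block (limma adjusted p = 0.0517), no trend, and without CL11 replicate 1 or 3 or MEF replicate 1 or 2 (-0.27 to -0.18). The one in IP14D-1 (0.37) was lost as deposited (0.27) and with median scaling (0.35), and the one in IP14D-101 (-0.36) with median scaling (-0.012), without MEF replicate 2 (-0.28) and without IP14D-101 replicate 2 (-0.26). Mthfd2 differed by 1.03 in IP20D-3 against IP14D-101, and its calls against MEF were lost as deposited in IP20D-3 and with median scaling in IP14D-101 (-0.19). Several calls of Chac1, Stc2, Atf3 and Atf4 against MEF also depended on the processing, as given with their values above. The actin 3′ to 5′ ratio was also higher in IP14D-1 (1.37) and IP20D-3 (1.28) than in IP14D-101 (1.22) and CL11 (1.21), and its part in these differences was not tested. Groups of 3 arrays were too small for a test of single outlying arrays.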

How the results depend on the processing

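The count of the 38 genes called stayed within 1.5 times the reported one in 8 of the 10 comparisons under every scaling, filter, pseudocount, model and probe set rule tried. In IP14D-1 against CL11 it was 17 with median scaling. In IP20D-3 against IP14D-1, where 9 were called, it was 23 as deposited, 3 with median scaling, 5 with the median of probe sets and 3 without the trend. Leaving out 1 array gave 30 to 31 called in CL11 against MEF, 23 to 27 in IP14D-1 against MEF, 29 to 33 in IP14D-101 against MEF and 23 to 24 in IP20D-3 against MEF. It gave 23 to 26 in IP14D-1, 4 to 10 in IP14D-101 and 26 to 27 in IP20D-3 against CL11. Among iPS lines it gave 23 to 28 in IP14D-101 against IP14D-1, 3 to 7 in IP20D-3 against IP14D-1 (3 without IP14D-1 replicate 1, 5 without IP20D-3 replicate 1) and 23 to 28 in IP20D-3 against IP14D-101. With the replicate block, 24 were called in IP14D-1, 24 in IP20D-3, 31 in IP14D-101 and 31 in CL11 against MEF, 26 in IP14D-1, 27 in IP20D-3 and 5 in IP14D-101 against CL11, 27 in IP14D-101 against IP14D-1, 8 in IP20D-3 against IP14D-1 and 24 in IP20D-3 against IP14D-101, so it changed no count by over 1.5 times. Of 6080 single gene values, 224 were no longer called and 128 became called. Another 39 turned sign while called in the reported fit or in the alternative, and these are given below. The other 5689 kept their side of the threshold. Values that turned sign but were called in neither fit are counted among the 5689. The cause was not tested.

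As deposited, values against MEF turned for Eif4ebp1 (-0.19) and Cth (-0.0684) in CL11, for Sesn2 (-0.22), Eif4ebp1 (-0.33) and Cth (-0.56) in IP14D-101, and for Atf4 (-0.40), Cebpg (-0.50), Ddit4 (-0.60), Eif4ebp1 (-0.24), Slc7a5 (-0.54), Slc3a2 (-0.38), Asns (-0.51), Psat1 (-0.53), Shmt2 (-0.48), Mthfd2 (-0.15) and Cth (-0.032) in IP20D-3. As deposited, Psat1 (-0.43), Phgdh (-0.0059), Psph (-0.42), Hsp90b1 (-0.44) and Sel1l (-0.46) turned in IP14D-101 against IP14D-1, and Atf5 (-0.48), Cebpg (-0.18), Xbp1 (-0.48), Eif4ebp1 (-0.45), Slc7a5 (-0.17), Asns (-0.50), Psat1 (-0.38), Psph (-0.35) and Shmt2 (-0.54) in IP20D-3 against IP14D-1. With median scaling, Psat1 (0.34), Phgdh (0.10) and Wars (0.039) turned in IP14D-101 against MEF, and Slc7a3 (0.071) and Cth (0.011) in IP14D-101 against IP14D-1. With the median of probe sets, Wars (0.15) turned in IP14D-101 against MEF, Atf4 (-0.21) and Cebpg (-1.17) in IP20D-3 against MEF, and Sel1l (-0.46) in IP14D-1 against CL11. Signal near background limits what can be said of Slc7a11, of Vldlr in CL11 and IP14D-101, and of Stc2 there.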
